A study of Mus musculus with 157 samples.

Results

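TFEB-alone peaks were the part of the MSUc-gained TFEB peak list that shared no base with any peak of the gained TFE3 list or of the gained DOT1L list. The rule kept 2477 of 5667 gained TFEB peaks (43.7%). Another 983 (17.3%) overlapped a gained TFE3 peak and no gained DOT1L peak, and 2207 (38.9%) overlapped a gained DOT1L peak. Each of the 2477 was tied to the gene with the nearest transcription start site in the authors' annotation, which gave 1876 genes. The binding lists chose the peaks, so their TFEB gain and their lack of overlap with gained TFE3 and DOT1L peaks are no finding here. Only gained peaks were compared, so TFE3 or DOT1L already bound in PBS is not excluded at these sites. The closest peak kept lay 4 bases from a gained TFE3 or DOT1L peak, and 4 lay within 20 bases. Of the 3190 left out, the smallest overlap was 4 bases and 2 shared 20 bases or fewer. The lists compared held 4446 TFE3 and 4756 DOT1L peaks.

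The cells were mouse bone marrow-derived macrophages, grown from flushed marrow with 16 ng/mL M-CSF, the growth factor of macrophages. MSUc denotes monosodium urate crystals, the particles that cause gout, given at 250 ug/mL, and PBS is their buffer control. The TFEB peaks came from chromatin immunoprecipitation of cells labelled WT, with 2 MSUc and 3 PBS samples, set beside 1 MSUc and 2 PBS samples for TFE3 and 3 of each for DOT1L. H3K27ac, an acetylation of active enhancers and promoters, was mapped in 2 MSUc and 3 PBS samples, and H3K4me3, a methylation best known at promoters, in 2 of each. RNA was sequenced in C57BL/6 cells after 1, 2 and 5 h with MSUc or PBS (2 libraries each), in cells of Tfeb-Tg mice (TfebTg, carrying a Tfeb transgene) and their WT (3 libraries a group, 2 for WT in PBS), and in cells labelled Tfe3KO and Tfe3WT (3 a group), each with MSUc or PBS. A further set compared MSUc-treated cells kept in 1 uM SGC0946, an inhibitor of the H3K79 methyltransferase DOT1L, from day 0 of culture with vehicle (3 each). This set also held vehicle and SGC0946 libraries in PBS. The time course also held libraries at 10 and 30 min, and the Tfe3 set libraries with CPPD or silica particles. These further groups shared the fits and were not compared. The labels used here name no promoter for the transgene, no age of the mice in these groups, no exposure time for the RNA libraries outside the time course and no source of the RNA replicates, while the headers of the H3K27ac and H3K4me3 lists name mice. The p-values below therefore measure the spread between libraries, which may be technical.

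TFEB and TFE3 are basic helix-loop-helix zipper factors of the MiT/TFE family, along with MITF and TFEC. They bind E-boxes (CACGTG) and the related M-box (CATGTG core), and in many cell types they drive genes of lysosomes and autophagy when mTORC1 activity falls. In macrophages they have also been tied to cytokine genes. DOT1L methylates H3K79 in the bodies of transcribed genes, and elongation factors of the AFF and ELL families are listed beside it here.

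Sequence was read where a TFEB-alone peak ran into a RefSeq promoter window of the same build (GRCm38.p6, equal to mm10). Of the 2477 peaks 9 are described in this way, with 1555 bases in all, and the 6 longest stretches are shown because they cover most of their peaks and hold the motif matches given next. All are on the plus strand and named by the gene nearest to the peak. Capitals mark matches on either strand to the M-box core CATGTG, the M-box TCATGTGA, the AP-1 motif TGACTCA, the C/EBP motif TTGCNNAA and the core of the antioxidant response element TGACNNNGC.
Tnfaip3 chr10:19062540-19062785: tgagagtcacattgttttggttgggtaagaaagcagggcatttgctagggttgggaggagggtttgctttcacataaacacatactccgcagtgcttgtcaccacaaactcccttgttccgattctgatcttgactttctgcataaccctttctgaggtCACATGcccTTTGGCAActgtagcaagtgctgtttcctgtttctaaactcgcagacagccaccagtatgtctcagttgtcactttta
Bcar3 chr3:122391947-122392185: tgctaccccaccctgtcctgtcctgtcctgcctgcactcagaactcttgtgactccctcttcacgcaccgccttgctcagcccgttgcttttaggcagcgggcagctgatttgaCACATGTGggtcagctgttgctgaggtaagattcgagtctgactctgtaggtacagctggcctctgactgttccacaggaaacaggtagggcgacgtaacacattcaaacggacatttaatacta
4930594O21Rik chr3:37602340-37602572: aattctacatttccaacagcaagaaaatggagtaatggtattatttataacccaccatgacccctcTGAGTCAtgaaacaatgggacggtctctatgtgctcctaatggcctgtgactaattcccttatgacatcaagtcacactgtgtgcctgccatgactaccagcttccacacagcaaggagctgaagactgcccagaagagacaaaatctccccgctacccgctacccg
Trdmt1 chr2:13558653-13558871: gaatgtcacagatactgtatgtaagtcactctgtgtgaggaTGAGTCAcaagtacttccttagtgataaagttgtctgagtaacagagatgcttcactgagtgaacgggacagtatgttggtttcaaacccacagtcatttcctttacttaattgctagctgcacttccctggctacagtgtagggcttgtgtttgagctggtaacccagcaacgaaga
Piezo1 chr8:122556098-122556309: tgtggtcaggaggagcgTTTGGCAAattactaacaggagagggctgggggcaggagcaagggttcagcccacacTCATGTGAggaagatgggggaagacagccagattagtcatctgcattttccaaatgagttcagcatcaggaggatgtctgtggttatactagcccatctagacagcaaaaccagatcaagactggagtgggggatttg
Tbc1d16 chr11:119191820-119192000: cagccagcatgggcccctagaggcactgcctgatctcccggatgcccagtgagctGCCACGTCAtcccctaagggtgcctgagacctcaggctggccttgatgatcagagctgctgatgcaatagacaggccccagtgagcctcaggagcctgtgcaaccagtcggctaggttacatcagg

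In the 9 stretches the M-box core was found in 3, near Tnfaip3, Bcar3 and Piezo1, and the full M-box in 1, near Piezo1. Of all 32851 RefSeq promoter windows, each 300 bases long, 14.2% held the core and 0.986% the full M-box. The E-box CACGTG occurred in 0 of the 9 stretches and in 7.15% of the windows, and its flanked form TCACGTGA in 0 and 0.974%. AP-1 matches stood in 2 stretches (5.202% of windows), C/EBP matches in 2 (10.8%) and the antioxidant core in 1 (12.4%). The CRE TGACGTCA (1.79% of windows) and the PU.1 motif GAGGAAGT (3.20%) matched 0 stretches. The core lies within the full M-box, and an AP-1 match can share bases with the antioxidant core. The promoter windows of the nearest genes, as opposed to the peaks, held CACGTG in 150 of 1375 genes matched (10.9%) and in 2187 of all 27025 genes (8.09%). For TCACGTGA these counts were 29 (2.11%) and 304 (1.12%). These counts describe letters only and were not tested.

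The genes next to the printed stretches differed in their response at 5 h. Bcar3, a signalling adaptor at cell adhesions, rose with a log2 change of 1.79 ± 0.10 (SE, adjusted p = 4.9e-08) and stood at 62.5 ± 0.434 TPM with MSUc against 17.4 ± 1.08 in PBS (SD, n = 2 each). Piezo1, a mechanosensitive ion channel, had 169.6 and 154 TPM with MSUc and 95.2 and 70.2 TPM in PBS, with no overlap (0.97 ± 0.22, adjusted p = 0.0031). Tbc1d16, a regulator of Rab GTPases, fell (-0.86 ± 0.14, adjusted p = 0.00026). Trdmt1, a tRNA methyltransferase, gave -0.05 ± 0.24 (adjusted p = 0.89). The adjusted p-values here and below are from limma on log2(TPM + 1) over all genes tested. TPM counts transcripts scaled for their length and for the library total, only genes with an adjusted p under 0.05 are said to rise or fall, and each change is a log2 ratio on that scale.

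The TFEB-alone peaks were distal sites, as was every peak of the gained TFEB list. Their median width was 249 bases (quartiles 229 and 274), and their median distance to a start site was 29368 bases, against 23913 for peaks with TFE3 and 27792 for peaks with DOT1L. Every gained TFEB peak lay more than 3 kb from the start site assigned in the authors' annotation. The list holds no closer peak, so the distal position was set by the list and is no finding here. The peaks shown above still ran into RefSeq promoter windows of other genes. Between 3 and 10 kb lay 478 TFEB-alone peaks (19.3%), between 10 and 50 kb 1204 (48.6%), and farther out 795 (32.1%). By the authors' annotation 1262 (50.9%) were in introns, 1146 (46.3%) between genes, 27 at transcription ends, 20 in 3′ UTRs, 12 in exons, 8 in non-coding genes and 2 in 5′ UTRs. Peaks in annotated repeats made up 582 (23.5%), against 195 of 983 (19.8%) with TFE3 and 470 of 2207 (21.3%) with DOT1L. LINE elements held 6.46% of the TFEB-alone peaks, against 3.36% and 4.71%, and LTR elements 9.49%, against 9.46% and 8.29%. These differences between the groups of peaks were not tested.

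Many of the sites stood close together. Within 25 kb of another, 636 TFEB-alone peaks (25.7%) formed 275 clusters, and 15 clusters held 4 or more. The largest clusters held 6 peaks each, 1 nearest to Trdmt1, 1 to Gm14005 and 1 to Edn2 and Hivep3. A cluster of 4 lay at Ccl2 and Ccl7, 2 monocyte chemokine genes, and another of 4 at Slc40a1, the gene of the iron exporter ferroportin, and Wdr75. A gained TFE3 or DOT1L peak was often near as well. One lay within 1 kb of 205 TFEB-alone peaks (8.28%) and within 10 kb of 799 (32.3%), the median gap being 28797 bases. Of the 1876 nearest genes 1479 had 1 TFEB-alone peak, 280 had 2 and 117 had 3 or more. For 1204 genes (64.2%) no other gained TFEB peak had that gene as its nearest.

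Few of these sites lay in chromatin that gained active marks. Of the 2477 TFEB-alone peaks 273 (11.0%) overlapped a region of gained H3K27ac, against 188 of 983 (19.1%) with TFE3 and 607 of 2207 (27.5%) with DOT1L. Gained H3K4me3 covered 143 (5.77%), against 104 (10.6%) and 320 (14.5%), and both marks 102 (4.12%), against 75 (7.63%) and 246 (11.2%). Losses were rare: 3 TFEB-alone peaks lay in a region of reduced H3K27ac, 0 in one of reduced H3K4me3 and 18 (0.727%) in a reduced DOT1L peak. The order of the groups of peaks was the same within each distance range: for TFEB-alone peaks the H3K27ac share was 9.41% at 3 to 10 kb, 12.04% at 10 to 50 kb and 10.4% beyond, against 17.8%, 20.4% and 18.01% with TFE3 and 25.97%, 26.2% and 30.6% with DOT1L. Since peak heights are listed as 0 for every peak, the strength of the sites was not compared, and its part in these shares was not tested. The H3K27ac and H3K4me3 lists were at 5 h per the file headers.

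Seen from the marks, 318 of 2081 gained H3K27ac regions (15.3%) held a TFEB-alone peak and 252 (12.1%) held no other gained TFEB peak. The median of the authors' deposited log2 changes was 1.48 in these 252 regions, against 1.56 in 903 with another gained TFEB peak and 1.40 in 926 with none. For H3K4me3 166 of 1168 regions (14.2%) held one, with medians of 1.42 in 120 regions, 1.59 in 501 and 1.38 in 547. The authors' H3K27ac signal, in tags scaled to 1 library total, had medians over the 318 regions of 118 in MSUc mouse 1 and 128 in MSUc mouse 3, against 40.4, 41.8 and 38.7 in PBS mice 1, 2 and 3. For H3K4me3 the medians over the 166 regions were 83.8 and 76.3 with MSUc, against 27.9 and 28.2 in PBS. Both MSUc samples of each mark were above all PBS samples, which follows from the choice of regions listed as gained.

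**Figure D1:**
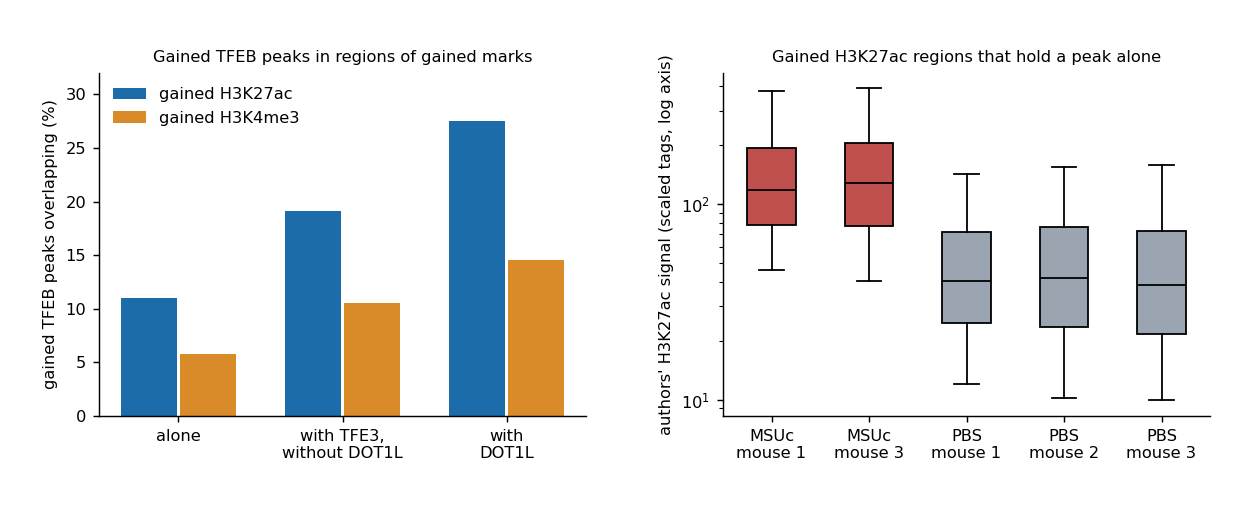
Left, the share of gained TFEB peaks (%) that overlapped regions of gained H3K27ac or H3K4me3, for peaks alone, with TFE3 and with DOT1L. Right, the authors' H3K27ac signal (scaled tags, log axis) in 318 gained regions that hold a TFEB-alone peak, 1 box per mouse with quartiles, median line and whiskers from the 5th to the 95th percentile. The H3K27ac share is 11.0% for peaks alone, 19.1% with TFE3 and 27.5% with DOT1L.

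The largest acetylation gain at a TFEB-alone peak was at chr14:120422954-120423238 (mm10), an intron upstream of Rap2a, a small GTPase gene. The authors' deposited table gives a log2 change of 3.0 (adjusted p = 4.4e-05), with signals of 56.0 and 70.3 with MSUc against 5.35, 4.07 and 13.5 in PBS. Rap2a mRNA gave -0.13 ± 0.11 at 5 h (adjusted p = 0.35). At chrX:170004933-170005247, upstream of G530011O06Rik, the authors' deposited table gives log2 changes of 2.81 for H3K27ac and 3.65 for H3K4me3, and this RNA rose by 1.77 ± 0.27. Near Rgl1, an activator of Ral GTPases, Ezr, a linker of membrane and cytoskeleton, and the cell cycle kinase gene Cdk6, the authors' deposited table gives 2.49, 2.59 and 2.49 for H3K27ac. Rgl1 rose by 3.42 ± 0.21 (adjusted p = 9.1e-08), Ezr by 1.74 ± 0.31 (0.00049) and Cdk6 by 1.11 ± 0.36 (0.022 by limma). Cdk6 no longer passed without PBS replicate 1 (0.86) or MSUc replicate 1 (0.77). Of genes near the largest H3K4me3 gains Arl8b, a GTPase that moves lysosomes, rose (1.27 ± 0.13), while Epn1 (-0.79 ± 0.08) and Rassf5 (-1.34 ± 0.13) fell.

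Before the genes, some facts on the libraries. The 46 RNA libraries, without those at 10 and 30 min or with CPPD or silica, held between 6.62 M and 22.1 M reads (M, mega). Summed macrophage markers stood at 10840 to 25150 TPM in all of them. In the Tfe3 set, Tfe3KO libraries numbered 1 carried Xist (83.2 TPM with MSUc, 57.1 in PBS), against at most 4.65 TPM in the other Tfe3KO libraries and 0.243 TPM in Tfe3WT libraries. Their Ddx3y with MSUc was 1.26 TPM, against 18.4 and 28.3 TPM in the other Tfe3KO libraries and 28.2, 26.1 and 21.7 TPM in Tfe3WT, so these libraries stand apart. Through them the Tfe3KO label also goes with a difference in Xist and Ddx3y, and counts without them are given below. The genotype field of the Tfe3WT samples reads Tfe3KO, and the treatment field of TfebWT MSUc replicate 3 reads PBS, where titles were followed in both cases. That TfebWT library had 60.1 TPM of Slc7a11, against 62.7 and 58.0 in the other TfebWT MSUc libraries and 3.83 and 3.15 in TfebWT PBS libraries.

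With MSUc for 5 h, the genes nearest to TFEB-alone peaks moved in both directions. Of the 1876 nearest genes 1290 reached the filter of 1 TPM in at least 2 libraries. Of these 459 rose (35.6%, background 16.4% of the 12350 genes tested) and 265 fell (20.5%, background 32.9%). The median change was 0.12, against -0.23 over all genes tested. Median-of-ratios scaling, which moves the median of all genes to -0.01, gave 576 rises (44.65%), 170 falls (13.18%) and a median of 0.36, against 25.04% and 20.4% over all genes. Since a gene at 0 in PBS enters only if it is high with MSUc, these counts describe the genes that passed and are not evidence on all 1876. A nearest gene is set by distance alone, and in bulk RNA fewer cells of a type and less RNA per cell cannot be told apart.

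The balance between rises and falls differed with what else lay near the gene. Among 787 tested genes with no other gained TFEB peak 25.0% rose and 26.6% fell, against 52.1% and 11.1% of 503 genes that had another one as well. With 1 TFEB-alone peak 30.4% rose and 23.1% fell (988 genes), with 2 peaks 47.9% and 15.02% (213), and with 3 or more 64.0% and 5.62% (89). Where a TFEB-alone peak lay in gained H3K27ac 52.3% rose and 8.72% fell (172 genes), against 33.0% and 22.4% of 1118 others. With no other TFEB peak these shares were 41.7% and 18.1% of 72 genes in gained H3K27ac, against 23.4% and 27.4% of 715. Genes whose closest TFEB-alone peak lay beyond 50 kb rose in 29.2% and fell in 28.0% of 271, against 38.4% and 17.9% of 336 within 10 kb. Genes nearest to peaks with TFE3 rose in 37.6% and fell in 20.96% of 606, and those nearest to peaks with DOT1L in 45.2% and 16.03% of 1079. Many genes belong to more than 1 of these groups, and the differences were not tested.

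**Figure D2:**
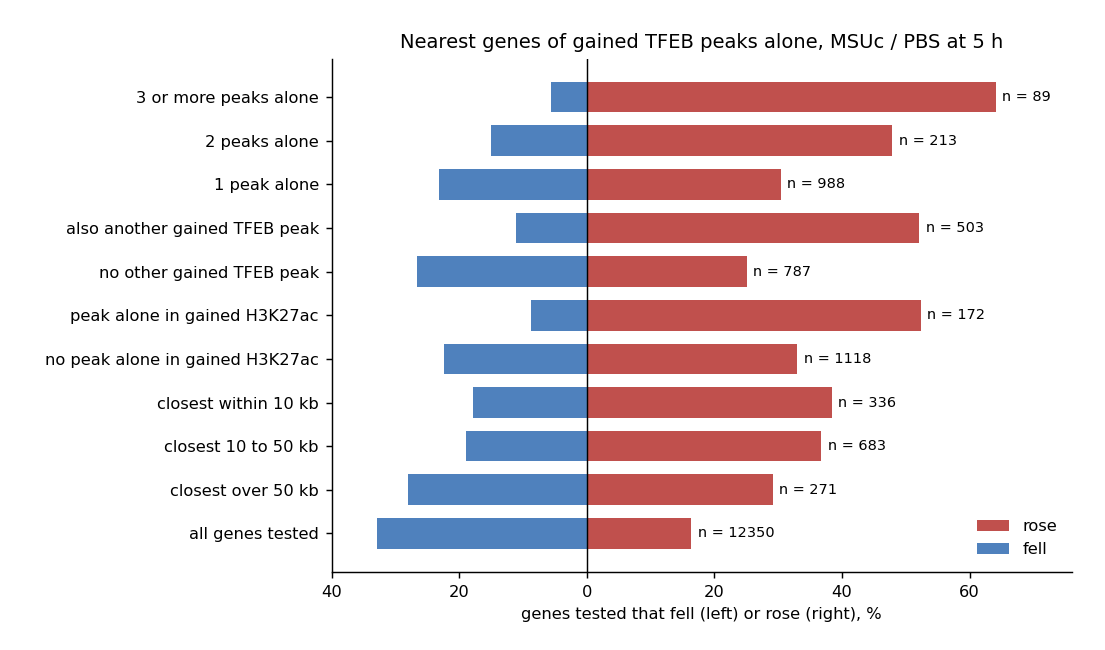
Share (%) of tested genes that rose (right, red) or fell (left, blue) with MSUc at 5 h, for genes nearest to TFEB-alone peaks grouped by number of such peaks, other gained TFEB peaks, overlap with gained H3K27ac and distance, with n beside each bar. Genes with 3 or more TFEB-alone peaks rose in 64.0% and fell in 5.62%, against 16.4% and 32.9% of all genes tested.

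The time course showed rises before falls. After 1 h 86 nearest genes had risen (6.67%, background 2.33%) and 2 had fallen (0.155%, background 0.947%). After 2 h 331 had risen (25.7%, background 11.2%) and 150 had fallen (11.6%, background 22.3%), and with median-of-ratios scaling 422 (32.71%) and 76 (5.891%), against 16.46% and 12.08% over all genes. Of the 86 risen at 1 h, 82 also rose at 5 h, and over all genes tested 258 of 288 did. Of the 459 risen at 5 h, 303 (66.0%) had risen at 2 h, against 1223 of 2026 (60.4%) of all genes that rose at 5 h. Fitting only the compared groups gave 28 calls at 1 h and 266 at 2 h.

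Immediate early genes, which respond without new protein synthesis, rose at 1 h in 9 of the 9 tested that had a TFEB-alone peak. At 5 h 8 of the 9 rose, with 0 falling at either time. Over the whole list 26 of 30 rose and 0 fell at 1 h, and 24 rose and 1 fell at 5 h. Egr2, a zinc finger factor with 1 peak at 54322 bases and no other gained TFEB peak, had 166 and 163 TPM with MSUc at 1 h against 3.29 and 4.87 in PBS, then 101 and 83.1 against 3.30 and 5.98 at 2 h, and 71.7 and 50.6 against 2.87 and 5.66 at 5 h. Its MSUc values were highest at 1 h and stayed above PBS at each time (5 h, 3.59 ± 0.34, adjusted p = 3.4e-06). Csrnp1, a nuclear transcriptional activator that is on no list, had 1 peak 9585 bases away and no other. It held 56.1 and 63.2 TPM at 1 h, 75.3 and 86.9 at 2 h and 90.3 and 123 at 5 h with MSUc, against 4.26 to 6.10 in all PBS libraries. It rose at each time (5 h, 4.07 ± 0.19, adjusted p = 1.2e-08). Dusp1, a phosphatase that switches off MAP kinases, had 661 and 601 TPM with MSUc at 1 h and 464 and 637 at 5 h, against 70.7 to 80.5 in PBS (5 h, 2.81 ± 0.14). The related Dusp2 rose by 2.21 ± 0.19 and Egr1 by 2.70 ± 0.32, both with TFEB-alone peaks and no other TFEB peak.

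Inflammatory genes with a TFEB-alone peak rose at 5 h in 7 of 7 tested, and the whole list in 23 of 26, with 0 falls in both. Acod1, the enzyme that makes itaconate, had 2 TFEB-alone peaks and no other gained TFEB peak. One, at chr14:103056828-103057075 and 9939 bases from the start, lay in gained H3K27ac. Acod1 held 22.7 and 37.5 TPM with MSUc at 1 h, 139 and 158 at 2 h and 233 and 237 at 5 h, against 7.61 to 10.3 TPM in the PBS libraries. The groups never overlapped and the MSUc values were higher at each later time (5 h, 4.61 ± 0.24, adjusted p = 2.5e-08). Tnfaip3, whose product A20 restrains NF-kappaB, had 6 TFEB-alone peaks, 1 of them the first sequence above, and 6 other gained TFEB peaks. It held 127 and 117 TPM with MSUc at 1 h, 201 and 179 at 2 h and 174 and 189.8 at 5 h, against 14.7 to 19.5 in PBS. Il1rn, the interleukin-1 receptor antagonist, had 3 TFEB-alone peaks and 2 others, and stood at 648 and 1011 TPM with MSUc at 5 h against 49.9 and 11.7 in PBS (5.00 ± 1.03, adjusted p = 0.0015). Its replicates differed widely within both groups. Csf1, which encodes M-CSF, rose by 3.64 ± 0.41 and the chemokine genes Ccl2 and Ccl7 by 2.99 ± 0.58 and 3.73 ± 0.73, each of these also near other gained TFEB peaks.

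**Figure D3:**
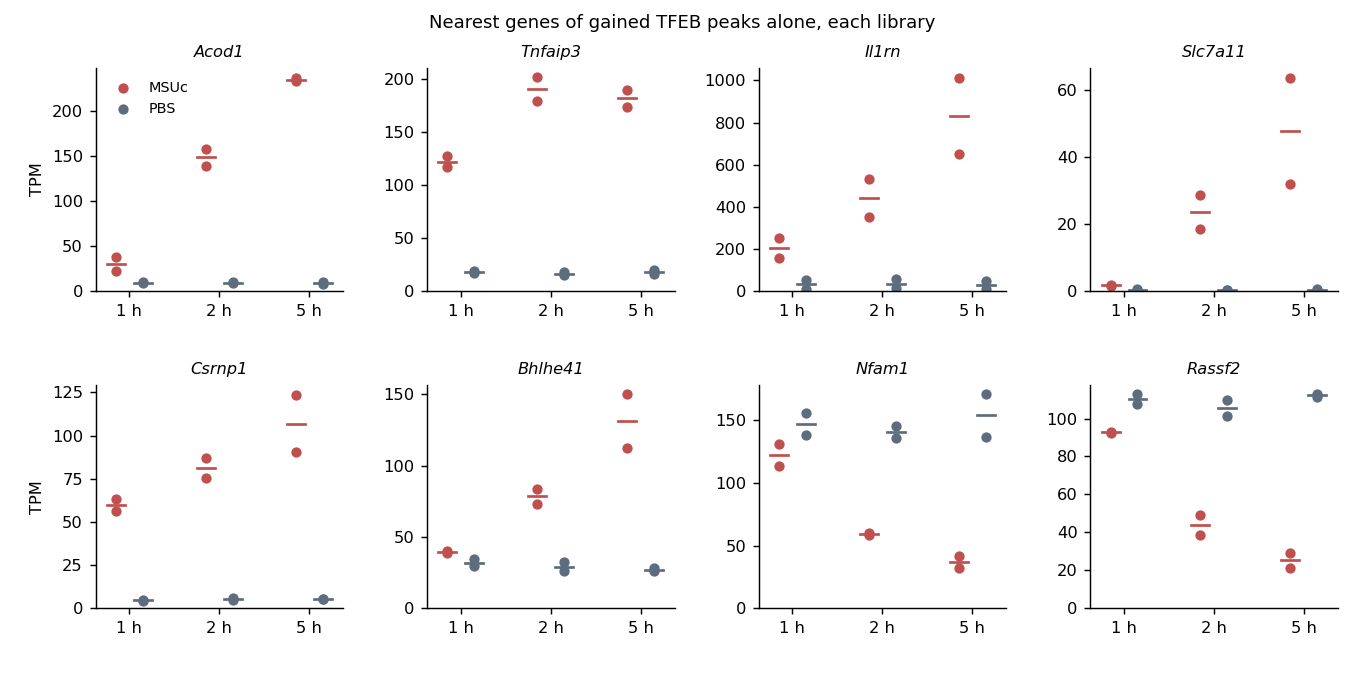
TPM in each library at 1, 2 and 5 h for 8 genes nearest to TFEB-alone peaks, MSUc (red) left of PBS (grey), n = 2 each, with the mean as a line. At 5 h Acod1 reached 233 and 237 TPM with MSUc, against 9.80 and 7.61 in PBS. The first 6 genes were above PBS with MSUc at 5 h and Nfam1 and Rassf2 below, with no overlap at 5 h.

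Lysosomal genes, the best known TFEB targets, moved in both directions. All 6 V-ATPase subunit genes tested with a TFEB-alone peak rose at 5 h, as did 15 of 17 on the list, with 0 falling. Atp6v0d2, a subunit of the membrane sector, had 1 peak in its own intron (chr4:19918954-19919223, in gained H3K27ac and H3K4me3) and no other gained TFEB peak. It held 97.6 and 130 TPM with MSUc at 5 h against 54.3 and 37.5 in PBS, without overlap (1.30 ± 0.36, adjusted p = 0.0091). The call was lost without PBS replicate 2 (1.04) or MSUc replicate 2 (1.09). Atp6v1c1, a subunit of the catalytic sector with 2 other TFEB peaks near it, rose by 1.54 ± 0.11, and Atp6v1b2 by 0.43 ± 0.08. Atp6v0a1 (0.41 ± 0.15, adjusted p = 0.035) did not pass without PBS replicate 1 (0.31) or MSUc replicate 1 (0.27), without a filter or with only the compared groups fitted. Of the 7 CLEAR genes (lysosomal genes with TFEB motifs) with a TFEB-alone peak, the chloride transporter gene Clcn7 rose (0.96 ± 0.30, adjusted p = 0.017), and the ceramidase gene Asah1 (-0.51 ± 0.07) and the mannosidase gene Manba (-0.74 ± 0.09) fell. Clcn7 no longer passed without PBS replicate 2 (0.74), MSUc replicate 1 (1.02) or MSUc replicate 2 (0.90). Over the 40 CLEAR genes 7 rose and 12 fell. Rab7, the GTPase of late endosomes, rose by 0.41 ± 0.06, the 1 of 3 autophagy genes with a TFEB-alone peak that passed (6 of 25 rose and 7 fell on the list).

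TFEB-alone peaks also lay at the family's own genes. Tfec had 1 peak 6374 bases from its start and no other, and its levels were 26.9 and 13.97 TPM with MSUc at 5 h against 4.65 and 7.25 in PBS (1.58 ± 0.46, adjusted p = 0.012). The call was lost without PBS replicate 1 (1.31) or MSUc replicate 1 (1.13). Mitf, with 1 peak 56452 bases away, gave 0.35 ± 0.34 (adjusted p = 0.43), and its groups overlapped. On that list of 15 genes 6 rose and 3 fell. Among bHLH repressors and elongation partners 3 of 3 genes with a TFEB-alone peak rose at 5 h (8 of 15 on the list, 1 fell). None of the 3 had another gained TFEB peak. Bhlhe41, a bHLH repressor, stood at 38.8 and 40.5 TPM with MSUc at 1 h, 83.8 and 73.4 at 2 h and 150.4 and 112 at 5 h, against 26.03 to 34.4 in PBS. It passed at 2 and 5 h and not at 1 h (5 h, 2.22 ± 0.16, adjusted p = 2.7e-07). Aff4 rose by 0.81 ± 0.09 and Ell2 by 0.53 ± 0.13, both parts of the super elongation complex. Ell2 did not pass without MSUc replicate 2 (0.33).

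Of NRF2 targets, which counter oxidants, 2 of 2 with a TFEB-alone peak rose at 5 h, as did 12 of 20 on the list. Slc7a11, the cystine importer, had 3 TFEB-alone peaks, all 3 in gained H3K27ac and H3K4me3, and 3 other gained TFEB peaks. It held 63.4 and 31.9 TPM with MSUc at 5 h against 0.295 and 0.512 in PBS (5.04 ± 0.28, adjusted p = 3.6e-08). Txnrd1, thioredoxin reductase, had 1 TFEB-alone peak in an intron and no other, and reached 690 and 379 TPM against 38.2 and 64.5 (3.34 ± 0.49). Of lipid handling genes 3 of 5 rose (10 of 23 on the list, 3 fell), namely the scavenger receptor gene Cd36 (1.37 ± 0.17), the nuclear receptor gene Pparg (1.27 ± 0.12) and Acsl1 (1.03 ± 0.10), which activates fatty acids. The 1 glycolysis gene, Pfkfb3, rose (1.75 ± 0.21, list 14 up and 2 down of 22). The 1 macrophage identity gene, Csf1r, the receptor of M-CSF, fell (-0.85 ± 0.32, adjusted p = 0.045, list 0 up and 14 down of 21), and lost its call after median-of-ratios scaling (-0.58), without PBS replicate 2 (-0.60) and without MSUc replicate 2 (-0.61).

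Fam105a showed the largest fall (-2.40 ± 0.20). Rassf2, a Ras association domain gene, had 21.3 and 29.2 TPM with MSUc at 5 h against 113 and 111 in PBS (-2.12 ± 0.13, adjusted p = 6.9e-08). Nfam1, an immunoreceptor with 2 TFEB-alone peaks, had 41.8 and 31.8 TPM against 136 and 171 (-2.03 ± 0.18). Both had fallen at 2 h and neither at 1 h. Gpr65, a proton-sensing receptor, fell to 19.2 and 37.1 TPM with MSUc against 111 and 92.8 (-1.89 ± 0.28), and Chn2, a Rac inhibitor, fell by 1.78 ± 0.13. None of these 4 had a TFEB-alone peak in gained H3K27ac, as was the case for 1118 of all 1290 tested nearest genes. Slc7a11, Il1rn, Flrt3 (4.92 ± 0.35) and Acod1 showed the 4 largest rises.

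The genes with most TFEB-alone peaks rose at 5 h, gave no call or were not tested. Creb5, a CREB family factor with 7, rose by 1.31 ± 0.14, Gm14005 with 7 by 1.33 ± 0.32, the zinc finger gene Zfp462 with 6 by 1.79 ± 0.17 and Tnfaip3 with 6 by 3.29 ± 0.15. Dock10 with 6, gave 0.42 ± 0.30 (adjusted p = 0.27), and its groups did not overlap. Trdmt1 with 6 is given above. The other 4 of the 10 genes with most peaks, 1700012I11Rik with 8, Sspn with 7 and 1700016G22Rik and B930018H19Rik with 6 each, did not pass the filter.

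The Tfeb transgene gave another comparison of the same genes. Tfeb mRNA was read in these cells, and not TFEB protein or its binding. Tfeb mRNA stood at 201, 299 and 240.3 TPM in TfebTg libraries with MSUc, against 28.9, 30.7 and 25.5 in TfebWT (3.06 ± 0.13, adjusted p = 6.1e-07), and at 86.5, 80.0 and 75.1 TPM in PBS, against 44.4 and 43.7 (0.85 ± 0.14, adjusted p = 0.02). With MSUc 65 of 1275 tested nearest genes were higher in TfebTg (5.10%, background 2.04%) and 38 lower (2.98%, background 1.43%). In PBS 24 were higher (1.88%, background 0.459%) and 6 lower (0.471%, background 0.259%). Of the 24, 16 were also higher with MSUc, against 40 of 55 over all genes. With no other gained TFEB peak, 0.902% of 776 genes were higher in PBS and 0.258% lower, against 3.41% and 0.802% of 499 with another. With MSUc these shares were 4.25% and 2.32%, against 6.41% and 4.01%. Genes nearest to peaks with TFE3 were higher in 2.65% and lower in 0.662% in PBS, and in 8.28% and 2.65% with MSUc. For peaks with DOT1L these shares were 1.78% and 0.563%, and 5.25% and 4.13%. Of 456 nearest genes that rose at 5 h with MSUc, 17 (3.728%) were higher and 26 (5.702%) lower in TfebTg with MSUc, against 81 (4.068%) and 90 (4.52%) of 1991 over all genes. With TfebWT MSUc replicate 3 placed in PBS, as its treatment field states, the counts fell to 11 with MSUc and 4 in PBS. Leaving out any 1 library gave 15 to 19 calls in PBS (18 and 15 without TfebWT PBS replicate 1 and 2, and 17, 16 and 19 without TfebTg PBS replicate 1, 2 and 3), and 61 and 52 with MSUc without TfebWT MSUc replicate 1 and 3.

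Kit, the stem cell factor receptor, had 2 TFEB-alone peaks, the closer 89205 bases from its start, and 2 other gained TFEB peaks. It stood at 28.6, 29.2 and 26.2 TPM in TfebTg with MSUc, against 6.49, 7.48 and 7.46 in TfebWT (1.83 ± 0.11, adjusted p = 8.2e-06). In PBS it held 17.0, 17.6 and 15.7 TPM, against 5.10 and 4.74 (1.58 ± 0.12). Kit is the only 1 of 4 mast cell markers that reached 1 TPM in TfebTg with MSUc, while Cpa3 reached 0.079 TPM and Ms4a2 and Mcpt4 were at 0. Cdkn1c, the cell cycle inhibitor p57, held 341, 413 and 426 TPM in TfebTg with MSUc, against 101, 102 and 109 in TfebWT (1.90 ± 0.12, adjusted p = 1e-05), and rose in PBS too (1.73 ± 0.13). Kdr, a VEGF receptor, was higher by 1.29 ± 0.09 with MSUc and 1.21 ± 0.10 in PBS, and the stress gene Gadd45a by 1.33 ± 0.12 and 1.01 ± 0.13. Gadd45a lost its call in PBS without TfebWT PBS replicate 1 (0.89). Summed macrophage markers were 10840 to 11080 TPM in TfebTg with MSUc, against 12040 to 12500 in TfebWT. Summed fibroblast markers were 6.98 to 7.68 TPM in TfebTg with MSUc, against 12.96 to 26.2 in TfebWT. Summed T cell markers were 9.60 to 16.7 TPM, against 3.33 to 3.78, of which Cd4 alone reached 1 TPM and Cd3e at most 0.164 TPM in TfebTg. The part of these markers in the TfebTg results was not tested.

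Of genes nearest to TFEB-alone peaks only, Bhlhe41 was higher in TfebTg with MSUc (105, 102 and 114 TPM, against 80.9, 82.1 and 78.8 in TfebWT, 0.40 ± 0.07, adjusted p = 0.011) and in PBS (60.1, 57.5 and 63.2, against 37.9 and 40.4, 0.61 ± 0.08, adjusted p = 0.0044). The call with MSUc was lost without TfebWT MSUc replicate 3 (0.38). Atp6v0d2 was higher with MSUc (311, 243 and 280.0 TPM, against 193, 184 and 192, 0.54 ± 0.10, adjusted p = 0.011). Dusp1 was lower with MSUc, at 182, 220.0 and 181 TPM, against 376, 388 and 367 (-0.96 ± 0.09, adjusted p = 0.00018), and Txnrd1 by 0.49 on the log2 scale (476 ± 14.6 against 670.2 ± 17.4 TPM, SD, n = 3 each, adjusted p = 0.0011 by limma). The groups did not overlap in any of these 4 genes. Of the immediate early list 0 genes were higher and 11 of 30 lower in TfebTg with MSUc, 2 of them with a TFEB-alone peak, Fos (-0.77 ± 0.09) and Dusp1. No CLEAR gene with a TFEB-alone peak passed with MSUc (0 of 7, 1 up and 1 down of 40 on the list).

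The MSUc response itself was compared between TfebTg and TfebWT by an interaction term. Of 1275 nearest genes 1 had a larger response in TfebTg (0.0784%, background 0.0751%) and 2 a smaller one (0.157%, background 0.025%). Arhgef3, a guanine nucleotide exchange factor, held 21.7, 23.3 and 22.9 TPM in TfebTg with MSUc and 8.14, 8.30 and 7.39 in TfebTg with PBS, and 5.08, 7.09 and 6.39 in TfebWT with MSUc and 5.71 and 6.91 in TfebWT with PBS (difference in response 1.43 ± 0.20, adjusted p = 0.021). All values of the TfebTg MSUc group were well above those of the other 3 groups. Slc40a1, with 3 TFEB-alone peaks and no other, held 62.2, 48.6 and 61.7 TPM in TfebTg with MSUc and 59.9, 62.0 and 63.3 in TfebTg with PBS, and 71.0, 82.8 and 73.6 in TfebWT with MSUc and 37.7 and 36.5 in TfebWT with PBS (-1.12 ± 0.15, adjusted p = 0.021). Its TfebTg groups overlapped and its TfebWT groups did not. Each of these 2 calls was lost without 8 of the 11 libraries left out in turn, at 1.31 to 1.46 for Arhgef3 and -1.16 to -1.05 for Slc40a1. With TfebWT MSUc replicate 3 counted as PBS 0 genes passed, and leaving out 1 library left 0 to 4, with 0 without TfebWT MSUc replicate 1 or 3 or TfebTg PBS replicate 1, 2 or 3, and 1 without TfebWT PBS replicate 1 or TfebTg MSUc replicate 2 or 3.

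**Figure D4:**
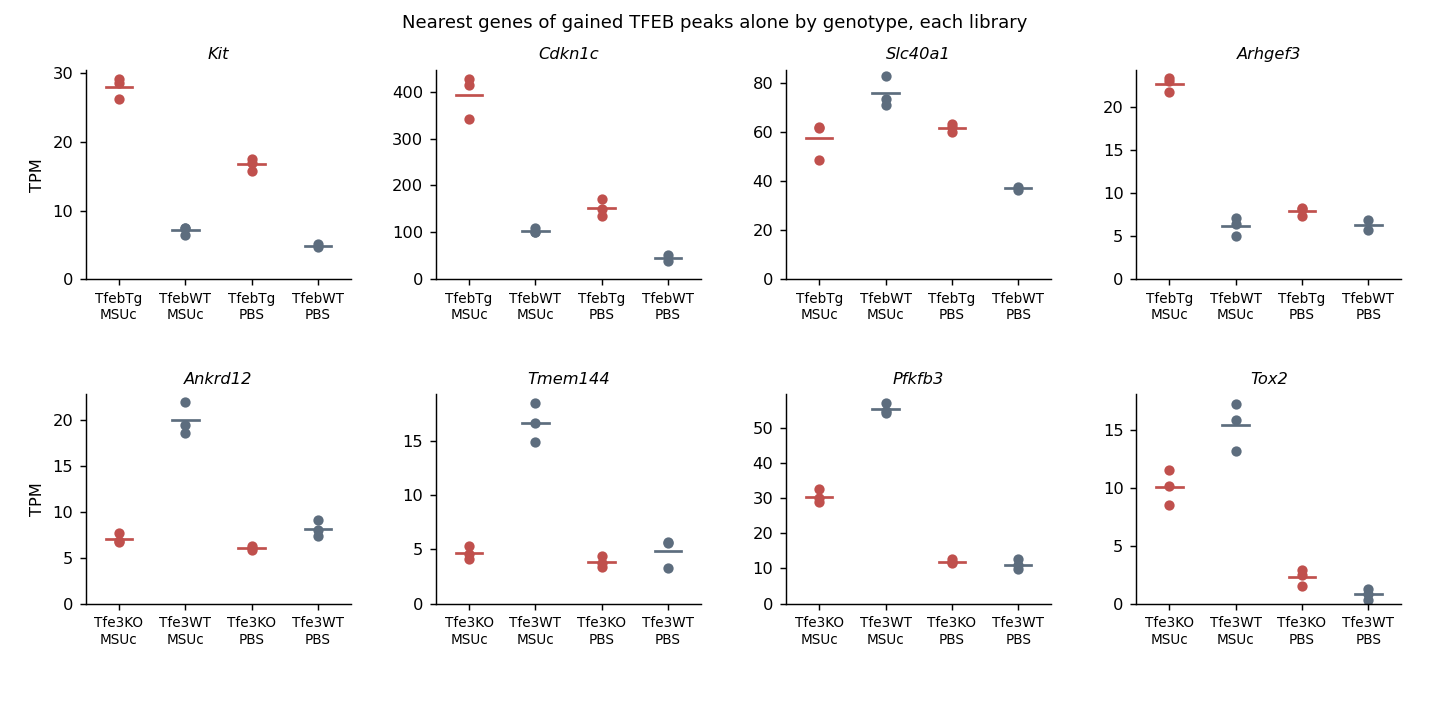
TPM in each library of TfebTg and TfebWT cells (top row) and of cells labelled Tfe3KO and Tfe3WT (bottom row), with MSUc or PBS, for 8 genes nearest to TFEB-alone peaks. Lines are means of 3 libraries, or 2 for TfebWT in PBS. Kit reads 26.2 to 29.2 TPM in TfebTg with MSUc, against 6.49 to 7.48 in TfebWT, and Ankrd12 6.73 to 7.66 TPM in Tfe3KO with MSUc, against 18.6 to 21.98 in Tfe3WT.

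The Tfe3 set was read for the same nearest genes in libraries labelled Tfe3KO and Tfe3WT. These genes were not split by gained TFE3 peaks without TFEB, so such peaks may lie near them. The gained TFE3 list rests on 1 MSUc sample. Tfe3 mRNA was not lost in the libraries labelled Tfe3KO (87.3, 84.9 and 85.0 TPM with MSUc, against 83.3, 79.7 and 83.2, 0.06 ± 0.08, adjusted p = 0.73), so directions are for libraries so labelled. With MSUc 71 of 1325 tested nearest genes were higher in libraries labelled Tfe3KO (5.36%, background 4.1%) and 130 lower (9.81%, background 6.63%). Genes with no other gained TFEB peak were higher in 4.89% and lower in 7.46% of 818, against 6.11% and 13.6% of 507 that had another. Genes nearest to peaks with TFE3 were higher in 7.44% and lower in 10.25% of 605. For peaks with DOT1L these shares were 7.71% and 10.93% of 1089. Without all Tfe3KO libraries numbered 1, which carry Xist, 55 were higher and 120 lower. Summed neutrophil markers were 231 to 351 TPM in Tfe3KO with MSUc, against 415 to 568 in Tfe3WT, 7 of 8 reaching 1 TPM and Ly6g at most 0.276, and fibroblast markers 183 to 631 TPM, against 395 to 547. The part of either in the results below was not tested.

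Ankrd12, an ankyrin repeat gene with 1 TFEB-alone peak and 1 other, held 7.66, 6.83 and 6.73 TPM in Tfe3KO with MSUc, against 21.98, 19.5 and 18.6 in Tfe3WT (-1.38 ± 0.09, adjusted p = 8.7e-09). Tmem144 held 5.34, 4.56 and 4.09 TPM, against 14.9, 18.5 and 16.6 (-1.64 ± 0.16), and its TFEB-alone peak lay in gained H3K27ac. Wdr7, a partner of the V-ATPase, was lower by 1.28 ± 0.12 and Lonrf1, with no other TFEB peak, by 1.14 ± 0.15. Of the 7 CLEAR genes with a TFEB-alone peak 0 were higher and 5 lower (26 lower of 40 on the list), among them the protease gene Ctsz at 984, 971 and 983 TPM, against 1265, 1241 and 1318 (-0.38 ± 0.06, adjusted p = 0.00036). Bhlhe41 was lower (56.0, 42.1 and 46.2 TPM, against 80.4, 74.2 and 86.7, -0.74 ± 0.11, adjusted p = 0.00017). Tfec was higher in Tfe3KO (32.9, 25.3 and 29.04 TPM, against 18.98, 17.7 and 18.04, 0.64 ± 0.13, adjusted p = 0.0027). Mitf gave 0.46 ± 0.12 (adjusted p = 0.014), or 0.33 with no call without Tfe3KO libraries numbered 1, and its call was also lost without Tfe3WT MSUc replicate 2 (0.38).

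Between the genotypes, the response to MSUc was larger in 6 nearest genes in Tfe3KO (0.453%, background 0.414%) and smaller in 34 (2.57%, background 1.31%). It was smaller in 9 of 818 genes with no other gained TFEB peak (1.1%), against 25 of 507 with another (4.931%). For genes nearest to peaks with TFE3 it was larger in 0.826% and smaller in 5.79% of 605. For peaks with DOT1L these shares were 1.10% and 3.49% of 1089. Pfkfb3, the enzyme that makes the glycolytic activator fructose 2,6-bisphosphate, held 28.9, 29.9 and 32.5 TPM in Tfe3KO with MSUc and 11.5, 11.8 and 12.7 in Tfe3KO with PBS, and 57.0, 54.7 and 54.0 in Tfe3WT with MSUc and 12.6, 9.80 and 10.9 in Tfe3WT with PBS (difference in response -0.95 ± 0.12, adjusted p = 0.00024). With MSUc its levels stood above PBS in both genotypes, and lower in Tfe3KO than in Tfe3WT. Arfgef2, an activator of ARF GTPases with 1 TFEB-alone peak and no other, held 14.7, 14.9 and 14.4 TPM in Tfe3KO with MSUc and 16.2, 16.1 and 18.2 in Tfe3KO with PBS, and 34.3, 34.4 and 31.2 in Tfe3WT with MSUc and 22.3, 18.9 and 19.02 in Tfe3WT with PBS (-0.89 ± 0.11, adjusted p = 0.00018). Ell2 had a larger response in Tfe3KO (0.57 ± 0.09, adjusted p = 0.0015). Fitting only the compared groups gave 13 calls, and median-of-ratios scaling gave 26. Leaving out Tfe3KO PBS replicate 1 gave 66 calls, Tfe3KO PBS replicate 2 or 3 gave 25 or 22, Tfe3WT MSUc replicate 2 gave 22, and Tfe3KO MSUc replicate 2 or 3 gave 23 or 20.

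The DOT1L inhibitor set was read for the same nearest genes. They were not split by gained DOT1L peaks without TFEB, so such peaks may lie near them. With MSUc 232 of 1301 tested nearest genes were lower in SGC0946 (17.8%, background 9.24%) and 66 higher (5.07%, background 7.39%). Genes with no other gained TFEB peak were lower in 14.6% and higher in 5.16% of 794, against 22.9% and 4.93% of 507 with another. Genes nearest to gained TFEB peaks with DOT1L were lower in 18.98% and higher in 6.85% of 1080. Of 455 nearest genes that rose with MSUc at 5 h in the time course 107 were lower and 28 higher in SGC0946, against 321 and 160 of 2003 over all genes. Leaving out SGC0946 MSUc replicate 1 or 3 gave 180 or 182 calls in place of 298.

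**Figure D5:**
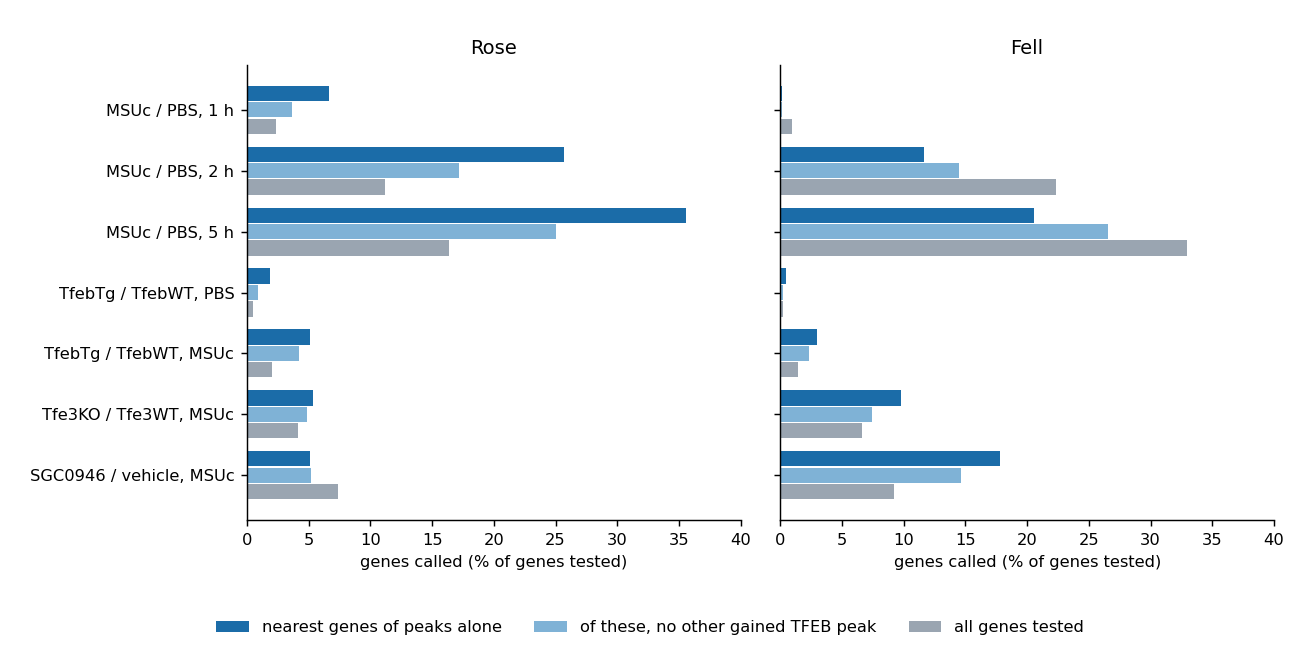
Share (%) of tested genes that rose (left) or fell (right) in each comparison, for genes nearest to TFEB-alone peaks, for those of them with no other gained TFEB peak and for all genes tested. With MSUc at 5 h 35.6%, 25.0% and 16.4% rose, and in SGC0946 17.8%, 14.6% and 9.24% fell.

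Atp6v0a1, a V-ATPase subunit with 1 TFEB-alone peak in gained H3K27ac and 1 other TFEB peak, held 186, 193 and 181 TPM in SGC0946 with MSUc, against 285, 314 and 286 in vehicle with MSUc (-0.66 ± 0.05, adjusted p = 0.00012). Atp6v0d2 had 542, 560.2 and 522 TPM, against 653, 636 and 679.5 (-0.28 ± 0.05, adjusted p = 0.0048), and both groups were apart in each gene. The cathepsin B gene Ctsb, with 1 TFEB-alone peak in gained H3K27ac and no other, held 4982, 4829 and 4888 TPM, against 6373, 6768 and 6143 (-0.39 ± 0.04, adjusted p = 0.00036). Clcn7 was lower by 0.55 ± 0.07 and Il1rn by 0.30 ± 0.07, the second not passing without SGC0946 MSUc replicate 2 (-0.26). Rpl34, a ribosomal protein, and Ndufb7, a subunit of respiratory complex I, showed the largest increases. Rpl34 held 177, 162 and 152 TPM in SGC0946, against 54.8, 30.3 and 42.4 in vehicle (1.96 ± 0.18, adjusted p = 0.0002), and Ndufb7 68.7, 57.3 and 69.0, against 16.9, 13.5 and 25.7 (1.79 ± 0.19). For both, the vehicle libraries with MSUc lay below the vehicle libraries in PBS, which held 113 to 160 TPM of Rpl34 and 56.7 to 72.0 of Ndufb7. Fabp5, a fatty acid carrier, was higher by 1.26 ± 0.11. On the lists, 1 of the 7 CLEAR genes with a TFEB-alone peak was higher in SGC0946, Ctsz (0.27 ± 0.05), and 2 were lower, Ctsb and Clcn7, against 4 higher and 14 lower of 40. Of the 6 V-ATPase genes 0 were higher and 2 lower (1 and 4 of 17), and of the 3 bHLH and elongation genes 0 and 2 (1 and 5 of 15). Of the 7 inflammatory genes 1 was higher and 1 lower (5 and 1 of 26), and of the 2 NRF2 targets 0 passed (7 higher of 20). The higher inflammatory gene was Acod1, at 27.5, 27.1 and 28.2 TPM in SGC0946, against 12.8, 10.7 and 14.8 in vehicle (1.07 ± 0.28, adjusted p = 0.028). Its groups did not overlap, and its call was lost without vehicle MSUc replicate 1 (1.07) or 2 (0.95), SGC0946 MSUc replicate 1 (1.07), 2 (1.08) or 3 (1.05), and without a filter. Dot1l mRNA was lower by 0.52 ± 0.07 in SGC0946 (adjusted p = 0.0013).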

How the data were processed

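TPM values per gene and library were deposited by the authors. STAR, HOMER and the mm10 build are named in the submitters' processing notes, and the TPM unit was read from the values. The values were whole reads after rescaling in at least 99.98% of cases (tolerance 0.15 read). Peak positions and the annotation of nearest genes are the authors' own. The H3K27ac and H3K4me3 region lists hold the authors' tag signal in 2 kb, scaled to a fixed library total per the file headers, with the authors' deposited log2 changes and adjusted p-values. Whether peaks were called per sample or on pooled samples is not given in the sources used here.

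From these files, overlaps of at least 1 base were found with bedtools 2.31.1. RNA was tested with limma 3.58.1 (trend) in R 4.3.3 on log2(TPM + 1), two-sided, with Benjamini-Hochberg adjustment over all genes tested. A gene was tested if the number of libraries at 1 TPM or more was at least the size of the smallest group, and all groups of a table shared 1 fit. The step was tested on simulated data. The peaks and gene lists were chosen with earlier results of these data known. Named genes were those with most peaks, the largest changes among calls of at least 1 on the log2 scale with a mean of at least 5 TPM, called members of 11 gene lists, and genes at the regions shown. 10 short RNA genes that met this rule were not named, and Tfeb, Tfe3 and Dot1l are given as checks of the labels. Peak scores are 0 throughout, so no rule used them, and the share of peaks with an E-box was not computed because no genome was used. The sequence and values of 1 further site are not reported here. 9 sample columns that matched no sample or came from another treatment were not used. Alternatives were another pseudocount (0.1), no filter, median-of-ratios scaling, a replicate block, only the compared groups, other peak and window rules, and each library left out.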

Additional observations from a re-analysis of the deposited data

Results flagged for a closer look

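Differences in the MSUc response between genotypes passed an interaction test (limma, adjusted p under 0.05) in 10 named genes nearest to TFEB-alone peaks. The response in TfebTg minus that in TfebWT was 1.43 for Arhgef3, -1.12 for Slc40a1 and -0.80 for Fam198b on the log2 scale. Fam198b held 84.6, 82.6 and 82.4 TPM in TfebTg with MSUc and 36.5, 37.4 and 41.4 in TfebTg with PBS, and 78.4, 73.5 and 77.7 in TfebWT with MSUc and 19.4 and 20.4 in TfebWT with PBS. Its call was lost without 10 of the 11 libraries, each left out in turn (-0.83 to -0.74), and with TfebWT MSUc replicate 3 counted as PBS (-0.15). The response in libraries labelled Tfe3KO minus that in Tfe3WT was -1.44 for Tox2, -1.39 for Tmem144, -1.02 for Pkdcc, -1.01 for Ankrd12, -0.95 for Pfkfb3, -0.89 for Arfgef2 and 0.57 for Ell2. Tox2 held 11.6, 8.54 and 10.2 TPM in Tfe3KO with MSUc and 1.55, 2.52 and 2.92 in Tfe3KO with PBS, and 13.2, 15.9 and 17.3 in Tfe3WT with MSUc and 0.357, 1.30 and 0.823 in Tfe3WT with PBS. Tox2 did not pass with only the compared groups fitted (-1.44). Pkdcc did not pass without 9 of the 12 libraries, each left out in turn. No group held 4 or more samples, so single samples were not tested as extreme values.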

How the results depend on the processing

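Counts of nearest genes called were 88, 481 and 724 with MSUc at 1, 2 and 5 h, 30 and 103 for TfebTg in PBS and with MSUc, 201 for Tfe3KO and 298 for SGC0946, and 3 and 40 for the interactions of TfebTg and Tfe3KO. Fitting only the compared groups gave 28 at 1 h, 266 at 2 h, 17 and 64 for TfebTg in PBS and with MSUc, and 13 for the Tfe3KO interaction. TfebWT MSUc replicate 3 counted as PBS gave 4, 11 and 0 for TfebTg in PBS, with MSUc and in the interaction. It also gave the changes of Ccl7 (-0.62) and Csf1 (-0.03) in PBS a negative sign, with no call as lower in TfebTg. The TfebTg interaction gave 5 calls without a filter, and the Tfe3KO interaction 26 after median-of-ratios scaling. The cause of these shifts was not tested. Leaving out 1 library gave 61 to 68, 344 to 400 and 607 to 647 at 1, 2 and 5 h, 15 to 19 and 52 to 93 for TfebTg in PBS and with MSUc, 0 to 4 for its interaction, 141 to 167 for Tfe3KO, 20 to 66 for its interaction and 180 to 290 for SGC0946. TFEB-alone peaks numbered 2272 with no gained TFE3 or DOT1L peak within 1 kb and 2496 where a shared peak had to cover at least 0.5 of the TFEB peak. Of the H3K27ac overlaps 35 lay in regions with an authors' log2 change of at least 2. Same-numbered libraries did not all correlate above 0.1, so numbers were not taken as pairs, although Tfe3KO libraries numbered 1 share high Xist in MSUc and PBS. As deviations from their group means, same-numbered MSUc and PBS libraries of the time course correlated at -0.552, -0.487 and -0.417 at 1, 2 and 5 h. Tfe3KO libraries numbered 1, 2 and 3 correlated between MSUc and PBS at 0.212, 0.075 and 0.168. The source of this shared spread was not tested. With a replicate block the counts were 87, 473 and 724 in the time course, 25, 108 and 0 for TfebTg, 242 and 55 for Tfe3KO and 255 for SGC0946. With the numbers crossed, chosen after seeing the data, the time course gave 117, 563 and 806. Leaving out all Tfe3KO libraries numbered 1, also chosen after seeing the data, gave 175 and 60. Of 1644 alternative values of named genes 1418 kept their direction and side of the threshold, 223 no longer passed, 1 newly passed and 2 reversed. Alternatives on peak scores and on E-boxes were not run.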
